A study of Homo sapiens with 6 samples.

Results

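Ribosome biogenesis is the making of ribosomal RNA and its assembly with ribosomal proteins in the nucleolus. RNA polymerase I (Pol I) transcribes the ribosomal DNA into a long precursor, small nucleolar ribonucleoproteins (snoRNPs) modify it, and it is cut and folded in the small subunit (SSU) processome and in the pre-40S and pre-60S particles. The pathway is active in growing and dividing cells, and its genes are textbook targets of the transcription factor MYC. The genes described here were chosen by name, with earlier results of these data known. They are 54 genes for Pol I and its factors and for ribosome assembly. All 54 were found among the 28563 genes of the deposited table. By role, 11 belong to the Pol I machinery, 8 are nucleolar proteins or box C/D snoRNP proteins, 9 act in the SSU processome, 6 in late pre-40S particles, 17 in pre-60S particles and 3 in processing of the internal transcribed spacer 2 (ITS2).

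The sample labels and the study give the cells as HepG2, an established cell line from a human liver tumour, cultured in dishes. In the treated group 3 dishes received polydatin (PD), the glucoside of resveratrol from a plant, at 336 µM by the sample labels, and the 3 control dishes received its solvent DMSO. The methods of the study give a lower dose of PD than the labels. RNA was taken from both groups after 24 h, so each group has 3 libraries of poly(A) RNA, which holds the messages for the assembly factors but not ribosomal RNA itself. The values are FPKM made by the authors, that is fragment counts divided by exon length and by the library total.

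Worked back from the FPKM, DMSO libraries held 16763318 to 17274927 fragments each and PD libraries 16308476 to 18071632 fragments each. The chi-square per gene between 2 libraries was 2.3 to 3.78 within groups and 52.3 to 61 between groups. Of 20 genes typical of hepatocytes or HepG2 that were looked up, 11 were among the genes analysed and CPS1 and RBP4 reached 1 FPKM. ALB and AFP were among those not found. HNF4A, a defining factor of hepatocytes, had at most 0.106 FPKM in any library, and SERPINA1 had at most 0.0452 FPKM. Most genes typical of the labelled line were thus near 0 or not found, and the identity of the cells was not tested. The summed FPKM of the 11 hepatocyte genes was 225 ± 3.51 (SD, n = 3) in DMSO and 110 ± 2.52 (SD, n = 3) in PD, nearly all of it CPS1. RBP4 went the other way, from 0.391 to 1.3 FPKM, a rise of 0.71 on the log2 scale (adjusted p = 0.0027, limma). Of 5 epithelial genes looked up, EPCAM, KRT8 and KRT18 reached 1 FPKM, EPCAM with at most 1.54 FPKM. CDH1 had at most 0.145 FPKM, with a PD mean at 27.1% of the DMSO mean, and KRT19 was not among the genes analysed. The summed FPKM of the 4 epithelial genes analysed was 97.8 ± 2.9 in DMSO and 118 ± 3.21 in PD (SD, n = 3 each). Nearly all of it was KRT8 and KRT18, and KRT8 rose by 0.45 on the log2 scale (adjusted p = 0.00011, limma). KRT18 had a difference of 0.04 that did not pass (adjusted p = 0.39, limma). The 3 fibroblast genes analysed summed to 3.58 to 4.25 FPKM, and the endothelial and leukocyte genes analysed stayed at or below 0.633 FPKM. Mitochondrial genes held 3.14% to 3.15% of fragments in DMSO and 3.69% to 3.86% in PD. The part of these differences in the results that follow was not tested. In RNA from whole dishes, fewer cells expressing a gene and less of its RNA per cell cannot be told apart.

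The starts of the genes are shown first, because many of them share a short motif. The E-box CACGTG is the site that MYC with MAX and related factors are known to bind, and it reads the same on both strands. RefSeq start windows on GRCh38.p14, from 250 bases before to 50 bases after a start, were available for 46 of the 54 genes, with 55 windows in all. The motif was in 18 of these windows (32.7%), belonging to 17 genes, against 9.54% of 14122 windows of genes tested here and 7.26% of all 35116 windows. The GC box GGGCGG, on either strand, was in 65.5% of the windows and in 67% of those of tested genes. TATAAA, on either strand, was in 3.64% against 5.97%. Such a match is a description of the sequence and not evidence of binding.

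The windows of 5 genes are printed 5′ to 3′ in lower case with the E-box in capitals: WDR43 (chr2:28894417-28894716, plus strand), DDX21 (chr10:68956397-68956696, plus strand) and GNL3 (chr3:52685782-52686081, plus strand), which fell most in PD, RRP9 (chr3:51941855-51942154, minus strand), which rose, and GNL2 (chr1:37595888-37596187, minus strand), which did not pass the test.
WDR43: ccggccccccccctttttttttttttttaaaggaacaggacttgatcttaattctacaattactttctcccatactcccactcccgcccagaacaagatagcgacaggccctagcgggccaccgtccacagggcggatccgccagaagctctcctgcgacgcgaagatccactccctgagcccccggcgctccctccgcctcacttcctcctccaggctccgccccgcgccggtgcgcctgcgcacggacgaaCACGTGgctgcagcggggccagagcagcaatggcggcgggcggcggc
DDX21: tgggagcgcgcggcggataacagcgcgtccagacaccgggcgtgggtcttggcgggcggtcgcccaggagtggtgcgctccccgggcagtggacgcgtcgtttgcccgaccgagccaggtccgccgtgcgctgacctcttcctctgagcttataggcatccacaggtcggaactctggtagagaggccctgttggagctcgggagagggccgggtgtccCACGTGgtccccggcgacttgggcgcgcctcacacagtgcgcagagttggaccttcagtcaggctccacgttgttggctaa
GNL3: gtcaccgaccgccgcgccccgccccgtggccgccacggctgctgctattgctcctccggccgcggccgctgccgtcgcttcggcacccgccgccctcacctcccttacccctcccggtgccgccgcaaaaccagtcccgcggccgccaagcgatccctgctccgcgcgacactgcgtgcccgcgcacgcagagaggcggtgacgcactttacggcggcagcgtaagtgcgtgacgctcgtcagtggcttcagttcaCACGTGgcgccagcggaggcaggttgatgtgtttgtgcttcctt
RRP9: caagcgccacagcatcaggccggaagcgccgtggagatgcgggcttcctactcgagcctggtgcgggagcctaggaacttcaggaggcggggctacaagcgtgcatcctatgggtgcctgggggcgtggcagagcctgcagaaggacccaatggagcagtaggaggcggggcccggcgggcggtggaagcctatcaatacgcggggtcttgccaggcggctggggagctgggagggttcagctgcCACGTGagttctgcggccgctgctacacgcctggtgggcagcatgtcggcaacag
GNL2: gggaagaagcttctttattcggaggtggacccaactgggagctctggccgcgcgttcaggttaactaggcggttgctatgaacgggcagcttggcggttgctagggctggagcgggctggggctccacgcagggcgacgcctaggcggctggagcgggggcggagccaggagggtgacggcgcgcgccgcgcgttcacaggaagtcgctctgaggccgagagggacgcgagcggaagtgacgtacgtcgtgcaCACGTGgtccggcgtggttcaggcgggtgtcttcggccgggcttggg
Counted from the first transcribed base, the motif begins at base 4 in WDR43, at base 7 in GNL3 and at base 4 in GNL2, all inside the transcribed part of that window. In RRP9 the motif begins 5 bases before the start and spans it. In DDX21 it lies upstream, beginning 31 bases before the start used for that window. DDX21 and GNL3 each have another RefSeq window, which lacks the motif.

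Messages for ribosome biogenesis were mostly lower after PD than after DMSO, few of them by as much as 2-fold. Of the 54 genes, 53 had a mean of at least 0.5 FPKM and were tested with limma on log2(FPKM + 1) among 14400 genes. At an adjusted p of at most 0.05, 38 of the 53 were lower, against 26.2% of all genes tested, and 4 were higher, against 31.9%, while 11 did not pass. Together 42 passed, against 58.1% in either direction. The median log2 fold change of the 53 genes was -0.32 and that of all genes tested was 0.01, and 19.6% of all genes tested were at or below -0.32. With the 2-fold threshold of the study added, WDR43, DDX21 and GNL3 were downregulated differentially expressed genes (DEGs), where 1.57% of all genes tested were. Upregulated DEGs made up 2.04% of all genes tested, and the largest rise of a member on the FPKM + 1 scale was that of RRP9, at 0.39. All 3 PD libraries lay below all 3 DMSO libraries in 42 genes, against 29.9% of all genes tested, and above them in 4 genes, against 35.6%. Scaling by the upper quartile gave 45 lower and 2 higher members, and over all genes it gave 3798 higher and 4675 lower in place of 4588 higher and 3780 lower.

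Summed over the 54 genes, FPKM were 1779.64, 1754.55 and 1721.84 in DMSO replicates 1, 2 and 3 and 1305.87, 1285.04 and 1285.5 in PD replicates 1, 2 and 3. The 2 sets did not overlap, and the PD mean was 73.8% of the DMSO mean. As a share of all fragments the genes took 0.769% to 0.797% in DMSO and 0.569% to 0.583% in PD. The sum is weighted to the abundant nucleolar proteins, so it was also taken by role. Each role sum is still weighted to its abundant genes. The PD mean was 67.7% of the DMSO mean for the SSU processome, 69.6% for nucleolar and box C/D proteins and 71.3% for late pre-40S factors. It was 79% for pre-60S factors, 87.1% for ITS2 processing and 87.9% for the Pol I machinery. In the SSU processome, WDR43 alone went from 33.9 to 13.5 FPKM, within a sum of 116 in DMSO and 78.7 in PD. Median log2 fold changes were -0.46 for late pre-40S factors, -0.40 for the SSU processome and -0.39 for nucleolar and box C/D proteins. They were -0.30 for pre-60S factors, -0.13 for ITS2 processing and -0.08 for the Pol I machinery.

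**Figure D1:**
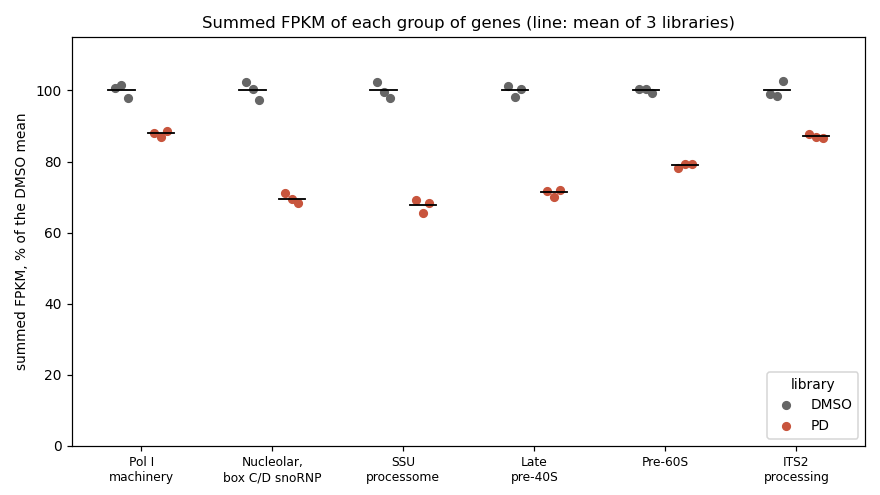
Summed FPKM of each role group in each library, as a percentage of the mean of the 3 DMSO libraries. Grey points are DMSO libraries, red points are PD libraries and lines are means. In each group the 3 PD libraries lie below the 3 DMSO libraries, with PD means from 67.7% for the SSU processome to 87.9% for the Pol I machinery. Each sum is weighted to its abundant genes.

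Replicates were close, with a median coefficient of variation over the tested genes of 3.82% in DMSO and 4.14% in PD. The mean in PD ranged from 40% of that in DMSO, for WDR43, to 133% for TAF1B, with a median of 79.2%. A fall of at least 1.5-fold on the FPKM + 1 scale was seen in 8 genes, namely WDR43, DDX21, GNL3, NOLC1, UTP20, LTV1, NOP58 and TAF1D. At or below -0.60 on the log2 scale were 15.1% of the tested members, beside 7.01% of all genes tested. TAF1A, DDX10 and BYSL, at -0.58, -0.54 and -0.56 on this scale, were at -0.71, -0.71 and -0.59 with voom on fragments. In 32 of the 54 genes an exon overlaps another annotated gene on either strand, so part of their reads may be assigned elsewhere or come from there. These are POLR1B, POLR1D, UBTF, UTP15, NOP14, RRP12, PNO1, TSR1, NOB1, NOP2, NOP16, WDR12, BOP1, PES1, RRS1, NIP7, SDAD1, GNL2 and LAS1L, and the genes whose overlap is named with their values. Of the 22 genes without an overlap, 16 were lower, 3 were higher and 3 did not pass, with a median of -0.33 on the log2 scale. Of the 31 tested genes with one, 22 were lower, 1 was higher and 8 did not pass, with a median of -0.31. Over all genes tested, 26.2% were lower and 31.9% higher.

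**Figure D2:**
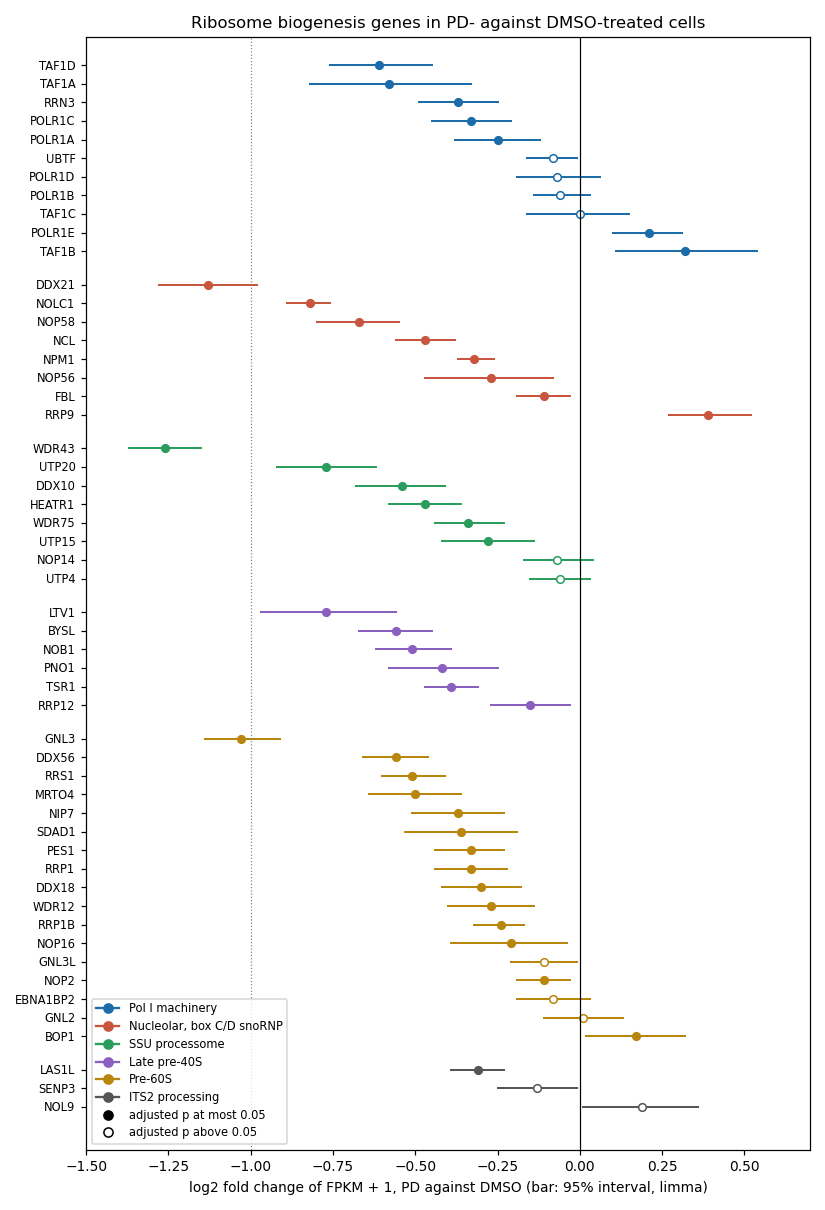
Fitted log2 fold change of FPKM + 1 in PD against DMSO for the 53 tested genes (points) with 95% intervals (bars), in colour by role. Filled points passed limma's test, hollow points did not, and the dotted line is a 2-fold fall. Of the filled points, 38 lie left of 0 and 4 lie right of it, RRP9, TAF1B, POLR1E and BOP1.

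Genes of the Pol I machinery changed in both directions. Of its 11 genes, 5 were lower in PD (45.5%, beside 26.2% of all genes tested), 2 were higher (18.2%, beside 31.9%) and 4 did not pass, and the median was -0.08 on the log2 scale. Among the subunits of the enzyme, POLR1A, the largest subunit (chromosome 2 of GRCh38, 86020216 to 86106155), had 11.6, 13.3 and 12.6 FPKM in DMSO replicates 1 to 3 and 10.2, 10.6 and 10.2 FPKM in PD replicates 1 to 3. Each PD library was below every DMSO library, a change of -0.25 on the log2 scale (SE 0.06, adjusted p = 0.0065, limma). POLR1B, which forms the catalytic centre with POLR1A, had 19.2, 19.4 and 19.4 FPKM in DMSO and 19.1, 18.2 and 18.3 FPKM in PD. The difference of -0.06, with a 95% interval of -0.14 to 0.03, did not pass (adjusted p = 0.2), although the groups did not overlap, and with upper quartile scaling it passed at -0.14 (adjusted p = 0.012). POLR1C and POLR1D form the assembly platform that Pol I shares with RNA polymerase III (Pol III). POLR1C fell, with 11.3, 11 and 10.8 FPKM in DMSO and 7.99, 8.93 and 8.77 FPKM in PD, a log2 fold change of -0.33 (adjusted p = 0.0011), and its exons overlap XPO5 and other genes across the strands. POLR1D had 6.08, 6.47 and 6.3 FPKM in DMSO and 5.93, 5.66 and 6.29 FPKM in PD. Its groups overlapped, and the difference of -0.07 had an interval of -0.19 to 0.06. POLR1E, a subunit particular to Pol I, rose, with 20.6, 19.6 and 18.8 FPKM in DMSO and 21.9, 23.5 and 23.0 FPKM in PD, a log2 fold change of 0.21 (adjusted p = 0.0068). With upper quartile scaling this rise was 0.12 and no longer passed (adjusted p = 0.055).

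Among the initiation factors, RRN3, TAF1A and TAF1D fell and TAF1B rose. RRN3, which brings Pol I to the promoter and is controlled by growth signals, had 36.0, 38.3 and 36.2 FPKM in DMSO and 29.9, 26.5 and 28.8 FPKM in PD. It was the most abundant of the 11 genes per length and fell by 0.37 on the log2 scale (adjusted p = 0.0007), but pseudogene copies of RRN3 exist and could share its reads. UBTF, the protein that coats active ribosomal DNA, had 26.0, 25.9 and 25.7 FPKM in DMSO and 24.0, 24.2 and 24.9 FPKM in PD. Its difference of -0.08 did not pass (adjusted p = 0.061), but it passed with median-of-ratios scaling (-0.12, adjusted p = 0.019), with upper quartile scaling (-0.16, adjusted p = 0.005) and without a filter (adjusted p = 0.044).

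TAF1A, TAF1B, TAF1C and TAF1D encode the factors that join TBP in selectivity factor 1 at the Pol I promoter, and they differed among themselves. TAF1D (chromosome 11, 93729948 to 93784391) had 18.6, 18.0 and 15.6 FPKM in DMSO and 11, 11.2 and 11 FPKM in PD, a log2 fold change of -0.61 (SE 0.06, adjusted p = 0.00018). TAF1A had 5.48, 5.23 and 5.82 FPKM in DMSO and 4.13, 3.13 and 2.92 FPKM in PD, a log2 fold change of -0.58 (adjusted p = 0.0023). They were the largest falls of the Pol I group, TAF1D on the FPKM + 1 scale and TAF1A with voom on fragments (-0.71 against -0.65), and both were lower in every PD library than in any DMSO library. TAF1B had 3.53, 3.05 and 2.82 FPKM in DMSO and 4.56, 3.68 and 4.27 FPKM in PD, a rise of 0.32 (adjusted p = 0.018), although by a narrow gap between the groups. TAF1C had 8.2, 7.64 and 8.42 FPKM in DMSO and 7.45, 7.98 and 8.82 FPKM in PD, with overlapping groups and an interval of -0.16 to 0.15 around no difference. Exons of TAF1D overlap small nucleolar RNA genes on its strand while TAF1A and TAF1C have neighbours across the strands, which leaves all 3 values uncertain. The call for TAF1B was lost without a filter and when DMSO replicate 2, DMSO replicate 3, PD replicate 1 or PD replicate 3 was left out, with adjusted p of 0.052 to 0.06.

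Of the 8 genes for nucleolar and box C/D snoRNP proteins, 7 were lower (87.5%, beside 26.2% of all genes tested) and 1 was higher (12.5%, beside 31.9%). The calls of FBL and NOP56 did not hold in every setting. These 8 genes include the most abundant messages of the pathway. DDX21, an RNA helicase of the nucleolus that takes part in Pol I transcription and rRNA processing, lies on chromosome 10 from 68956135 to 68985068. It had 192, 196 and 177 FPKM in DMSO replicates 1 to 3 and 93.3, 80.2 and 82.5 FPKM in PD replicates 1 to 3. The PD mean was 45.3% of the DMSO mean, a log2 fold change of -1.13 (SE 0.06, adjusted p = 1.1e-05, limma). NOLC1, a chaperone that carries snoRNPs to the nucleolus, had 151, 149 and 147 FPKM in DMSO and 85.0, 83.2 and 82.5 FPKM in PD, a log2 fold change of -0.82 (adjusted p = 2.6e-06). NCL, nucleolin, had 116, 110 and 107 FPKM in DMSO and 81.7, 79.8 and 77.2 FPKM in PD, a log2 fold change of -0.47 (adjusted p = 5.2e-05). Its exons overlap SNORA75 and SNORD20. These 3 genes and NPM1 were the genes at or above 100 FPKM in DMSO, and in none of them did the groups overlap. NPM1, nucleophosmin, was the most abundant member, with 298, 295 and 290 FPKM in DMSO and 239, 236 and 233 FPKM in PD. It fell by 0.32 (adjusted p = 4.4e-05), and it has many processed pseudogenes that could share its reads.

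The box C/D core consists of the methyltransferase FBL and the scaffold proteins NOP56 and NOP58, which are related to each other. NOP58 had 53.6, 50.1 and 49.4 FPKM in DMSO and 34.0, 31.0 and 30.2 FPKM in PD, a log2 fold change of -0.67 (adjusted p = 4.5e-05). Annotated exons of NOP58 overlap SNORD70B. NOP56 had 26.6, 22.1 and 22.7 FPKM in DMSO and 18.7, 21.4 and 18.3 FPKM in PD, a smaller fall of 0.27 (adjusted p = 0.025). Its call was lost without a filter and without DMSO replicate 1, PD replicate 1 or PD replicate 3 (adjusted p of 0.059 to 0.082), and its exons overlap small nucleolar RNA genes on the same strand. FBL had 73.9, 72.6 and 72.5 FPKM in DMSO and 65.1, 68.9 and 68.7 FPKM in PD, a fall of 0.11 (adjusted p = 0.021), which was lost without DMSO replicate 1 (adjusted p = 0.066) or PD replicate 1 (adjusted p = 0.061). The fold changes of these partners were thus unequal in size while their direction was the same. RRP9, which binds the U3 snoRNA, was the exception among the 8 genes. It lies on chromosome 3 from 51933429 to 51941904 and had 24.8, 22.5 and 25.9 FPKM in DMSO and 32.5, 32.6 and 31.7 FPKM in PD. All PD libraries were above all DMSO libraries, and the rise was 0.39 with a standard error of 0.05 (adjusted p = 0.00059).

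**Figure D3:**
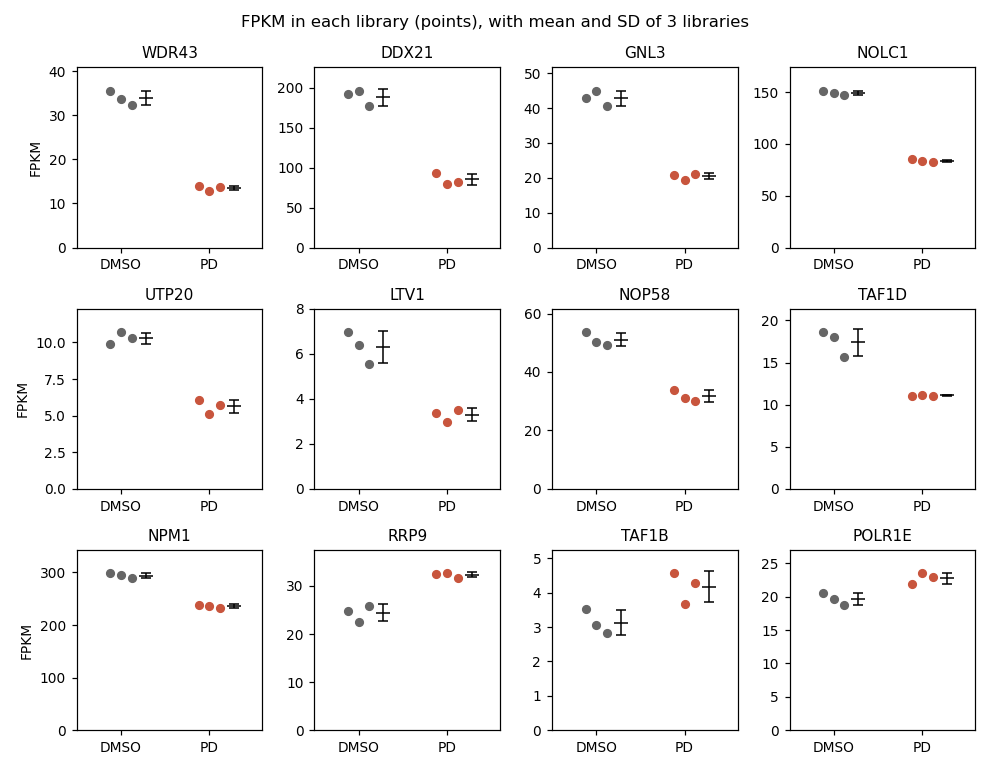
FPKM in each library for 12 genes, each panel with its own axis from 0, with DMSO libraries in grey, PD libraries in red, and the mean and SD of 3 libraries in black. WDR43, DDX21, GNL3, NOLC1, UTP20, LTV1, NOP58, TAF1D and NPM1 were lower and RRP9, TAF1B and POLR1E were higher in all 3 PD libraries than in the 3 DMSO libraries.

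In the SSU processome, the particle that forms on the nascent precursor, 6 of the 8 tested genes were lower in PD (75%, beside 26.2% of all genes tested). The other 2, UTP4 and NOP14, passed with upper quartile scaling alone (-0.14 and -0.15, adjusted p = 0.011 and 0.027). WDR43, a subunit of the UtpA complex that binds the precursor first, showed the largest fall of all members. It lies on chromosome 2 from 28894667 to 28948219 and had 35.5, 33.7 and 32.4 FPKM in DMSO and 14.0, 12.9 and 13.7 FPKM in PD. The message fell by 1.26 on the log2 scale (SE 0.05, adjusted p = 3.2e-06, limma). The other UtpA genes among the members fell less or did not pass. HEATR1 fell by 0.47 (adjusted p = 0.00014), WDR75 by 0.34 (adjusted p = 0.00047) and UTP15 by 0.28 (adjusted p = 0.0057), whereas UTP4 had a difference of -0.06 with an interval of -0.15 to 0.03. For the 5 UtpA genes among the members, mean FPKM in DMSO were 33.9 for WDR43, 22.1 for HEATR1, 17.8 for UTP4, 8 for WDR75 and 5.45 for UTP15. In PD WDR43 at 13.5 FPKM was below HEATR1 at 15.7 FPKM and UTP4 at 17.1 FPKM. Exons of HEATR1 overlap those of LGALS8 on the other strand.

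UTP20, a large scaffold protein, had 9.9, 10.7 and 10.3 FPKM in DMSO and 6.05, 5.13 and 5.71 FPKM in PD, a log2 fold change of -0.77 (adjusted p = 4.8e-05). The RNA helicase DDX10 fell by 0.54 (adjusted p = 0.00018), and NOP14 had a difference of -0.07 with an interval of -0.17 to 0.04. DDX47 was the member below the minimum of 0.5 FPKM, with 0.195, 0.213 and 0.116 FPKM in DMSO and 0.165, 0.0566 and 0.0608 FPKM in PD. These values rest on 17, 18 and 10 fragments in DMSO and 15, 5 and 5 fragments in PD. In the settings that kept it, DDX47 did not pass, with a log2 fold change of -0.96 and a 95% interval of -1.85 to -0.07 by voom on fragments (adjusted p = 0.057), and -0.10 with an interval of -0.24 to 0.03 on the FPKM + 1 scale without a filter (adjusted p = 0.25). The exons of DDX47 overlap those of APOLD1 on the same strand in GENCODE, and the part of that overlap in its low count was not tested.

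All 6 late pre-40S factors passed the test as lower in PD, beside 26.2% of all genes tested. In all 6 the PD libraries were below all DMSO libraries, beside 29.9% of all genes tested, and their median log2 fold change was -0.46. LTV1, which binds the head of the pre-40S particle, had 6.96, 6.39 and 5.57 FPKM in DMSO and 3.39, 2.97 and 3.52 FPKM in PD, a log2 fold change of -0.77 (adjusted p = 0.00023). Exons of LTV1 overlap other annotated genes on its strand. The fall was 0.56 for BYSL (adjusted p = 5.9e-05), 0.51 for NOB1, the nuclease that makes the last cut of 18S rRNA (adjusted p = 0.00011), 0.42 for PNO1, its partner (adjusted p = 0.0018), and 0.39 for the GTPase-like factor TSR1 (adjusted p = 5.6e-05). RRP12 had the smallest, 0.15 (adjusted p = 0.034), and its call was lost without a filter on FPKM and without DMSO replicate 1, DMSO replicate 3, PD replicate 1 or PD replicate 3, with adjusted p of 0.058 to 0.11.

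Of the 17 pre-60S genes, 13 were lower in PD (76.5%, beside 26.2% of all genes tested). BOP1 was higher (5.88%, beside 31.9%), and EBNA1BP2, GNL2 and GNL3L did not pass. The median of the group was -0.30 on the log2 scale. The nucleolar GTPases GNL2, GNL3 and GNL3L, which belong to a single family, had unequal fold changes. GNL3, nucleostemin, lies on chromosome 3 from 52681156 to 52694497 and had 43.0, 44.9 and 40.5 FPKM in DMSO and 20.9, 19.5 and 21.0 FPKM in PD. GNL3 had a log2 fold change of -1.03 (SE 0.05, adjusted p = 6.3e-06, limma), which became -0.99, short of 2-fold, when DMSO replicate 2 or PD replicate 2 was left out. Small nucleolar RNA genes overlap its exons on the same strand. GNL3L, its closest relative, had 21.2, 20.9 and 20.5 FPKM in DMSO and 18.8, 20.4 and 18.6 FPKM in PD, a difference of -0.11 with an interval of -0.21 to -0.01 (adjusted p = 0.069), which passed under both other scalings and without PD replicate 2 (-0.14, -0.19 and -0.15, adjusted p = 0.031, 0.011 and 0.024). GNL2 had 10.5, 10.2 and 10.9 FPKM in DMSO and 10.9, 9.99 and 11 FPKM in PD, with overlapping groups and an interval of -0.11 to 0.13. The differences between these fold changes were not tested.

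PES1, BOP1 and WDR12 form the PeBoW complex of the pre-60S particle. PES1 fell by 0.33 (adjusted p = 0.00057) and WDR12 by 0.27 (adjusted p = 0.0044). BOP1, the scaffold of the complex, had 25.9, 25.1 and 29.4 FPKM in DMSO and 28.9, 31.5 and 30.6 FPKM in PD. It was called higher at 0.17 (adjusted p = 0.049), but its groups overlapped, since DMSO replicate 3 was above PD replicate 1. The call was lost under both other scalings, without a filter and with DMSO replicate 1, DMSO replicate 2, PD replicate 2 or PD replicate 3 left out, where adjusted p ran from 0.11 to 0.3 over these settings, with a log2 fold change of 0.09 to 0.17.

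The other pre-60S genes that passed fell by 0.11 to 0.56. DDX56, an RNA helicase, fell by 0.56 (adjusted p = 3.7e-05), RRS1, which helps to load the 5S ribonucleoprotein, by 0.51 (adjusted p = 4.6e-05), MRTO4, a placeholder for the ribosomal stalk protein, by 0.50 (adjusted p = 0.00033), and NIP7 by 0.37 (adjusted p = 0.0012). The related genes RRP1 and RRP1B both fell, by 0.33 (95% interval -0.44 to -0.22) and 0.24 (95% interval -0.32 to -0.17). DDX18 fell by 0.30, SDAD1 by 0.36, NOP16 by 0.21 and the rRNA methyltransferase NOP2 by 0.11, with adjusted p of 0.043 for NOP16 and 0.022 for NOP2. Both calls were lost without DMSO replicate 3, PD replicate 1 or PD replicate 3, and that of NOP16 also without DMSO replicate 2 or without a filter, with adjusted p of 0.057 to 0.12. EBNA1BP2 had a difference of -0.08 with an interval of -0.19 to 0.03 (-0.16 and adjusted p = 0.026 with upper quartile scaling), and its exons overlap CFAP57 across the strands.

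ITS2 processing was represented by the nuclease LAS1L, its partner kinase NOL9 and the SUMO protease SENP3 that regulates them. LAS1L had 21.0, 20.3 and 21.1 FPKM in DMSO and 16.8, 16.4 and 16.6 FPKM in PD, a log2 fold change of -0.31 (adjusted p = 0.00022). NOL9 had 3.52, 4.05 and 3.91 FPKM in DMSO and 4.96, 4.33 and 4.2 FPKM in PD. Its PD libraries were above all DMSO libraries, but the difference of 0.19 did not pass (adjusted p = 0.062), and it did with limma voom on fragments (0.23, adjusted p = 0.016). SENP3 had a difference of -0.13 with an interval of -0.25 to -0.01 (adjusted p = 0.067), it passed under both other scalings (-0.16 and -0.20, adjusted p = 0.036 and 0.017), and its exons are shared with the readthrough gene SENP3-EIF4A1.

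Members with and without the E-box were set side by side. The 17 members with CACGTG in a start window had a median log2 fold change of -0.36 and a range of -1.26 to 0.39, with 12 lower, 1 higher and 4 not called. The 28 tested members with a window but without the motif had a median of -0.32 and a range of -0.61 to 0.32, with 20 lower, 1 higher and 7 not called. Over all genes tested, 26.2% were lower and 31.9% higher. WDR43, DDX21, GNL3, LTV1 and UTP20, which had the 5 largest falls among members with a window, all hold the motif, and so do RRP9, GNL2 and UTP4. DDX21 and GNL3 hold it in only 1 of their windows. NOLC1 (-0.82) and NOP58 (-0.67) had no window, so whether they hold the motif is not known here. This comparison was made after the values had been seen and was not tested.

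Other genes of the pathway were taken from 4 lists of 130 genes in all. Of 128 tested, 78 were lower and 17 were higher in PD, which is 60.9% and 13.3% beside 26.2% and 31.9% of all genes tested, and their median log2 fold change was -0.20. Upper quartile scaling gave 92 lower and 7 higher. On the FPKM + 1 scale the largest falls were those of the SSU processome factors UTP3, from 16.5 ± 0.245 to 9.50 ± 1.07 FPKM (SD, n = 3 each; log2 fold change -0.74), and WDR3 (-0.69), and of the pre-60S factor BRIX1 (-0.65). The largest rises were those of REXO5 (0.62), an exonuclease, the helicase DDX49 (0.46) and the snoRNP assembly factor SHQ1 (0.43), and all 6 of these genes had adjusted p of at most 0.0025 (limma). PPAN, a pre-60S factor picked after its values had been seen, went from 1.85 ± 0.394 to 0.861 ± 0.213 FPKM (SD, n = 3 each). This was -0.61 on that scale and a log2 fold change of -1.11 with voom, beyond the -0.80 of UTP3, and its exons are shared with the readthrough gene PPAN-P2RY11. By role, 28 of 44 tested small subunit genes, 31 of 48 large subunit genes and 3 of 8 other Pol I subunits and factors were lower.

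**Figure D4:**
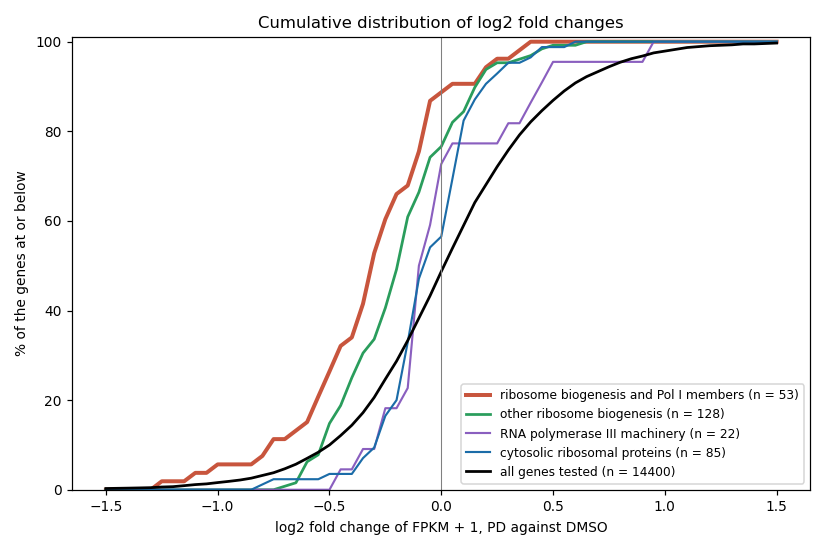
Cumulative distribution of log2 fold changes of FPKM + 1 in PD against DMSO. The vertical axis is the percentage of tested genes at or below the value on the horizontal axis. At -0.50 the curve stands at 26.4% for the 53 members, 14.8% for 128 other ribosome biogenesis genes, 0% for 22 Pol III genes, 3.53% for 85 ribosomal protein genes and 9.99% for all 14400 genes.

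A pair of neighbouring machineries in the same libraries is given for comparison. Of 22 genes of the Pol III machinery, which makes 5S rRNA and transfer RNA, 7 were lower and 5 higher (31.8% and 22.7%, beside 26.2% and 31.9% of all genes tested), and log2 fold changes had a median of -0.10 and a range of -0.46 to 0.91. Of 85 tested genes for cytosolic ribosomal proteins, 31 were lower and 14 higher (36.5% and 16.5%), with a median of -0.08 and a range of -0.83 to 0.56, and many of these genes have processed pseudogenes. The medians of the members (-0.32) and of these lists (-0.10 and -0.08) describe the same 6 libraries, and the difference between lists was not tested.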

How the data were processed

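RNA of PD- and DMSO-treated cells labelled HepG2 was analysed, with 3 libraries per group assigned from the sample titles. Libraries of poly(A) RNA were prepared with an NEBNext Ultra kit, HISAT2 aligned the read pairs (hg38), and HTSeq 0.6.0 gave counts per gene. From these the authors made and deposited a single table of FPKM for 28563 genes, all of whose value columns were used. The strand setting and annotation of the counting are not given in the sources used here, so the genes whose exons overlap another gene are listed. The replicates are separate dishes, plated from the same cell line and divided at random between the groups, so p-values measure the spread between dishes.

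The design assumed FPKM, and no count model was the main test. Of all genes, 14400 reached a mean of 0.5 FPKM and were fitted as log2(FPKM + 1) by limma 3.58.1 in R 4.3.3 without covariates, with an intensity trend in the prior variance, followed by Benjamini-Hochberg adjustment over all of them. Adjusted p in the text are from this test unless another setting is named, and adding 1 FPKM makes changes at low FPKM look smaller. A DEG is a gene that passed at 0.05 and changed at least 2-fold. Symbols, positions and exon overlaps come from GENCODE release 44 on GRCh38. Before use, the test was run on simulated data with few changed genes, balanced in direction. That run did not cover a change in most genes at once, as called here. The smallest two-sided exact permutation p for 3 against 3 libraries is 0.10, so that test cannot pass 0.05. Single genes are called by limma, and for many of them whether the groups overlap is given beside the call.

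Whole fragments were worked back from FPKM, which are whole multiples of a step, with the GENCODE exon length for 12772 genes and a common step for 15791. They gave the library totals and the input of limma voom (at least 10 fragments in 3 libraries). By the chi-square of these fragments no library repeated another. Alternatives were a pseudocount of 0.1, no filter, a replicate block, median-of-ratios and upper quartile scaling, voom, and leaving out each library.

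The members and lists were chosen with earlier results of these data known. Values in every library are given for the Pol I group, DEGs and the largest rise and fall of each role group by rule; the other members shown in full, and the 5 printed windows, were picked after their values had been seen. From the list of other pathway genes, the 3 largest rises and falls were named.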

Additional observations from a re-analysis of the deposited data

How the results depend on the processing

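Fold changes are relative to all counted fragments, and a general change in RNA per cell was not measured. In 35 of the 53 tested members the direction and the call were the same in all 12 alternatives. The median log2 fold change of the members, -0.32, was -0.34 with voom, -0.35 with median-of-ratios scaling, -0.40 with upper quartile scaling and -0.33 to -0.30 when a library was left out. The 4 higher members became 2 without a filter and 2 with upper quartile scaling, and 2 to 3 when a library was left out. The 17 higher genes of the other pathway lists became 7 with upper quartile scaling and 11 to 16 when a library was left out, the lowest of them without PD replicate 2. Lower members numbered 33 to 39 and DEGs 2 to 3 when a library was left out. The cause of these changes was not tested. Over all genes, the 520 DEGs became 1734 with voom and 1248 with a pseudocount of 0.1. The sign reversed in TAF1C and GNL2, neither of which passed in any setting. TAF1C was at 0.01, 0.02, 0.05 and 0.00 without DMSO replicate 1, DMSO replicate 3, PD replicate 1 and PD replicate 2, and at -0.06 without PD replicate 3, and GNL2 was at -0.02 with median-of-ratios scaling, -0.07 with upper quartile scaling and -0.01 without DMSO replicate 2, PD replicate 1 or PD replicate 3.

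Deviations of same-numbered libraries from their group means had correlations of -0.03 to 0.09 over genes, where all pairs ranged from -0.08 to 0.09. With 3 libraries per group, each centred on its own mean, this cannot tell whether same-numbered dishes were handled together. With the replicate number as a block, 37 members were lower and 3 higher, 40 in all, with a median of -0.32 and 3 DEGs. RRP12 (adjusted p = 0.072) and BOP1 (adjusted p = 0.051) were the calls lost, and 86 of the other pathway genes passed in place of 95.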

Other observations

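The RNA exosome, which trims the ends of rRNA precursors, went both ways in these libraries, and its genes are described here after their values had been seen. Of the core subunits, EXOSC8 fell from 18.4 ± 0.988 to 13.1 ± 0.158 FPKM (SD, n = 3 each; log2 fold change -0.47, adjusted p = 0.00012, limma), EXOSC9 by 0.45 and EXOSC7 by 0.39. Exons of these 3 genes overlap other genes. EXOSC6 rose from 5.88 ± 0.401 to 8.02 ± 0.516 FPKM (SD, n = 3 each; log2 fold change 0.39, adjusted p = 0.0016), and EXOSC4 rose by 0.34, with exons that overlap other genes. The nucleases EXOSC10 and DIS3 fell by 0.26 and 0.34, and the exosome helicase MTREX by 0.51 (adjusted p = 0.00027).

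The box H/ACA snoRNP turns uridine of rRNA into pseudouridine, and its genes were also picked after their values had been seen. Its enzyme DKC1 fell from 83.4 ± 1.16 to 54.3 ± 1.07 FPKM (SD, n = 3 each; log2 fold change -0.61, adjusted p = 6.3e-06) and GAR1 by 0.63, while NHP2 rose by 0.12 (adjusted p = 0.042) and NOP10 had a difference of 0.08 that did not pass (adjusted p = 0.14). Annotated exons of DKC1, merged over its transcripts, overlap small nucleolar RNA genes. Among Pol III genes, and also chosen after the values had been seen, MAF1, a repressor of Pol III, rose from 52.1 ± 2.3 to 72.9 ± 0.932 FPKM (SD, n = 3 each; log2 fold change 0.48, adjusted p = 4.4e-05). The other higher genes of that list belong to the Pol III machinery itself. POLR3GL rose by 0.91, the largest rise of the list, GTF3C5 by 0.43, BRF1 by 0.37 and POLR3G by 0.29. Of the 22 genes, 7 were lower.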
